A study of Mus musculus with 46 samples.

Results

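The 6 genes described here encode proteins of NF-κB signalling: the kinases Ripk2 and Map3k7, the inhibitors of apoptosis Birc2 and Birc3, the deubiquitinase Otulin and the nuclear cofactor Akirin2. They were chosen by name and pathway, and they are 6 of the 55416 gene rows of the deposited count table. RNA of mouse embryonic fibroblasts (MEFs, connective tissue cells grown from embryos) was sequenced in 46 libraries after 7 h of treatment. Wild type MEFs received DMSO vehicle (11 libraries) or 600 nM borrelidin (12 libraries), an inhibitor of threonyl-tRNA synthetase that raises translation of the transcription factor ATF4. ATF4 KO MEFs received vehicle (11 libraries) or the same dose of borrelidin (12 libraries), so the groups ask how these genes respond to the drug with and without ATF4. The wild type line was purchased and the ATF4 KO line was made in house with CRISPR-Cas9, so loss of ATF4 and other differences between these lines cannot be told apart. The labels call the libraries of a group biological replicates, and the p-values measure the spread between cultures of 1 line each.

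NF-κB transcription factors are held in the cytoplasm by IκB proteins until the IKK kinases mark IκB for destruction by the proteasome. Signals reach IKK through ubiquitin chains that are built at the receptors: cIAP1 and cIAP2, the products of Birc2 and Birc3, add chains at the TNF receptor, RIPK2 carries the signal of the NOD receptors, and TAK1, the product of Map3k7, binds the chains and activates IKK. OTULIN trims linear ubiquitin chains, and AKIRIN2 acts in the nucleus, where it helps NF-κB to switch on target genes and also brings proteasomes into the nucleus. Fibroblasts use this pathway to answer TNF, IL-1 and bacterial cell wall fragments.

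Counts in these rows can be tied to genes in only 3 chromosome segments of GRCm38, and all 6 genes lie in them. In the segments 61.5% of 397 protein-coding rows had a mean of over 5 counts per 1e6 (CPM), against 26.6% of 21480 such rows elsewhere, and 0.926% of lincRNA rows did, against 6.71% elsewhere. Processed pseudogene rows differed little, with 4.28% in the segments and 3.63% elsewhere. The segments come from an earlier analysis of these data, so these shares are no independent test of them. The Atf4 row lies outside the segments, and its transcript was not analysed here. By GENCODE M21, Ripk2 (ENSMUSG00000041135) lies at chr4:16122733-16163647 on the minus strand, Map3k7 (ENSMUSG00000028284) at chr4:31964097-32023467 on the plus strand and Akirin2 (ENSMUSG00000028291) at chr4:34550937-34566908 on the plus strand. Otulin (ENSMUSG00000046034) lies at chr15:27542635-27630693 on the minus strand. Birc2 (ENSMUSG00000057367, chr9:7818227-7837064) and Birc3 (ENSMUSG00000032000, chr9:7848699-7873186) are neighbours on the minus strand. Otulin overlaps Ank, a gene on the other strand, over 52275 bases, but the exons of these genes share 0 bases.

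The sequences shown are those that bear on control of these genes by ATF4, CREB or NF-κB and on the assignment of reads between Birc2 and Birc3. RefSeq promoters (GRCm38.p6, from 250 bases before to 50 bases after a start) were found for 5 of the 6 genes, all but Ripk2, with a pair of them for Birc2. Both strands were searched for the ATF4 element (ATTGCATCA, ATTTCATCA, GTTGCATCA or GTTTCATCA), for the cyclic AMP response element (CRE, TGACGTCA, which is its own reverse complement) and for the κB consensus. None of the 4 spellings of the ATF4 element is in the windows of these 5 genes, and 0.837% of 32851 promoters hold one. The CRE is in 1 promoter of Birc2, 35 bases before its start, and in 1.79% of all promoters. The κB consensus is in the promoter of Map3k7, on the minus strand and 92 bases before the start, and in 8.46% of all promoters. These matches describe the letters and not bound sites. The first 2 lines give the windows of 30 bases with the match in capitals (Map3k7 at chr4:31964005-31964034, plus strand, and Birc2 at chr9:7837074-7837103, minus strand), and the third gives the longest stretch that the coding sequences of Birc2 (bases 1111 to 1224) and Birc3 (bases 1084 to 1197) have in common, 114 bases from the GENCODE M21 transcripts.
Map3k7 κB match: ccccgggtcaGGAAATTCCCcgctcgggtc
Birc2 CRE: tgcgcgtctgcTGACGTCAcctcaacggcc
Birc2 and Birc3 shared coding stretch: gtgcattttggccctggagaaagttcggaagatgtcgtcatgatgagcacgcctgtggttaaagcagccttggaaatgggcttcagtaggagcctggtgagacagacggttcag

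Because of that shared stretch, 1.42% of the 50-base words of Birc2 transcripts are also in Birc3 transcripts, and 1.28% of those of Birc3 are in Birc2. Reads that aligned to several places stayed in a row of their own and were counted for no gene.

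Each library held 2047362 to 3467765 counts on gene rows, and 69% of the reads on average overlapped no annotated feature. The first principal component of the 500 most variable rows held 63.9% of the variance and the second 21.9%. On the second, 14 libraries stood apart from the rest of their groups: 8 of 11 of wild type with vehicle, 0 of 12 of wild type with borrelidin, 3 of 11 of ATF4 KO with vehicle and 3 of 12 of ATF4 KO with borrelidin. This set was found from the data and has no label, and in wild type it coincides largely with the treatment, so results for the 6 genes are given with and without it. The set was defined by these same counts, and the share of all rows that separate it within groups was not computed. Its levels in the 6 genes are therefore given as descriptions. Of 13 fibroblast markers, 3 lie in the segments: Tpm2 (a tropomyosin of the actin skeleton) had a mean of 565 CPM, Reck 39.5 CPM and Osr2 2.41 CPM. On plain library totals their sums had a median of 742 CPM (627 to 867) in vehicle-treated wild type. The median was 561 CPM (503 to 777) in wild type after borrelidin. In ATF4 KO it was 595 CPM (428 to 670) with vehicle and 506 CPM (405 to 622) after borrelidin. All marker sums here are on plain totals, and means of single tested genes are TMM-normalized, so the scales differ. Tpm2 had TMM-normalized means of 672 and 609 CPM in wild type with vehicle and borrelidin (log2 change -0.14, edgeR adjusted p = 0.23). Tpm2 was lower in ATF4 KO under vehicle (log2 change -0.32, adjusted p = 0.0071) and under borrelidin (-0.44, adjusted p = 9.1e-05, both from edgeR). Reck, an inhibitor of matrix metalloproteinases, fell with borrelidin in wild type (-0.76, adjusted p = 0.00016) and rose in ATF4 KO (0.50, adjusted p = 0.0065), and under borrelidin it was higher in ATF4 KO than in wild type (1.06, adjusted p = 3.2e-08, all from edgeR). Its wild type range with borrelidin (18.8 to 30.8 CPM) lay within that with vehicle (14.2 to 71.9 CPM). These marker tests are given with all libraries only, and not without the set. Of 8 lymphoid and myeloid markers, 3 lie in the segments, with sums of 69.9 to 116 CPM in wild type with vehicle, 67.2 to 117 with borrelidin, 75.6 to 114 in ATF4 KO with vehicle and 101 to 145 with borrelidin. Cd72 made up most of that sum (mean 92.8 CPM), the interleukin receptor Il7r was near 0 (0.0371 CPM), and the B cell factor Pax5 had 0.322 ± 0.41 CPM (SD, n = 11) in wild type with vehicle and 9.57 ± 4.38 CPM (SD, n = 11) in vehicle-treated ATF4 KO. Under borrelidin Pax5 had 0.157 ± 0.337 CPM in wild type and 16.7 ± 8.66 CPM in ATF4 KO (SD, n = 12 each). The 4 neuronal markers there summed to 3.87 to 12.2 CPM, and Col1a1, Vim, Ptprc and the epithelial and endothelial markers lie outside the segments. The part of Pax5, Cd72, Tpm2 and Reck in the differences between the lines was not tested.

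All 6 genes were detected in each library. In these bulk libraries fewer cells with a transcript and less of it per cell cannot be told apart. Raw counts per library ranged from 150 to 507 for Ripk2, from 656 to 1795 for Map3k7, from 267 to 682 for Otulin, from 306 to 1338 for Akirin2, from 81 to 368 for Birc2 and from 55 to 289 for Birc3, and none fell below the minimum mean of 5 CPM. Set per kb of exon, the mean levels over all libraries ran from Akirin2 (133 CPM per kb) through Otulin (96.9), Map3k7 (73.5), Ripk2 (32.9) and Birc2 (16.1) to Birc3 (11.4). Map3k7 was above Ripk2 and Ripk2 above Birc2 in 46 of 46 libraries. The other neighbours in this order exchanged places in some libraries: Akirin2 was above Otulin in 39, Otulin above Map3k7 in 36 and Birc2 above Birc3 in 42 of 46. The cofactor and the deubiquitinase had the most transcript per length, and both cIAP genes the least.

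**Figure D1:**
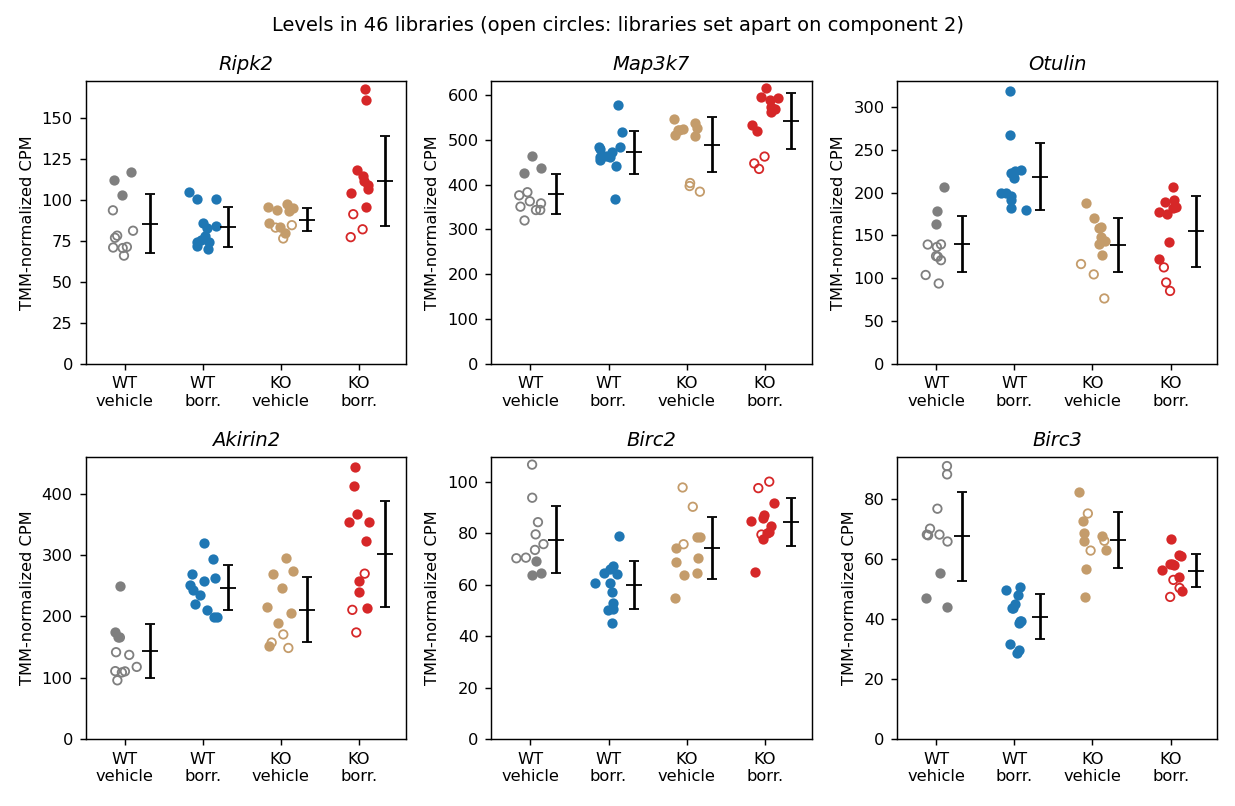
TMM-normalized CPM of the 6 genes (y axis, from 0) in each of the 46 libraries by group (x axis), with group mean ± SD in black and the 14 libraries set apart on component 2 as open circles. Open circles sit low for Map3k7 and Otulin in each group that has them, and the borrelidin libraries of wild type are lowest for Birc3 (28.8 to 50.5 CPM).

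Birc2, whose product cIAP1 is a ubiquitin ligase of the TNF receptor complex, ranged from 63.9 to 107 CPM in wild type with vehicle (median 73.5) and from 45.3 to 79 CPM with borrelidin (median 60.6). In ATF4 KO it ranged from 54.7 to 97.7 CPM with vehicle (median 74.4) and from 65 to 100 CPM with borrelidin (median 83.9). Wild type with borrelidin was the low group and ATF4 KO with borrelidin the high one, and neighbouring groups overlapped. In wild type with vehicle the 8 libraries of the set had 70.3 to 107 CPM and the 3 others 63.9 to 69.3 CPM, without overlap.

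Birc3, whose product cIAP2 is the close relative of cIAP1 and is itself a known NF-κB target, ranged from 44.1 to 90.8 CPM in wild type with vehicle (median 68) and from 28.8 to 50.5 CPM with borrelidin (median 41.6). The ATF4 KO range was 47.4 to 82.2 CPM with vehicle (median 66) and 47.3 to 66.7 CPM with borrelidin (median 57.1). Wild type with borrelidin was again the low group: 9 of 12 ATF4 KO libraries with borrelidin lay above its whole range. In wild type with vehicle the 8 libraries of the set had 65.7 to 90.8 CPM and the 3 others 44.1 to 55.3 CPM.

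Ripk2, the kinase that relays NOD receptor signals, ranged from 66.1 to 117 CPM in wild type with vehicle (median 78.3) and from 70.3 to 105 CPM with borrelidin (median 80.6). ATF4 KO libraries ranged from 76.5 to 97.8 CPM with vehicle (median 85.9) and from 77.4 to 168 CPM with borrelidin (median 108). The wild type groups overlapped almost fully, and 8 of 12 ATF4 KO libraries with borrelidin lay above the range of ATF4 KO with vehicle. The 3 wild type vehicle libraries outside the set had 103 to 117 CPM, above the 66.1 to 93.8 CPM of the 8 in it.

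Map3k7, the gene of the kinase TAK1, ranged from 320 to 463 CPM in wild type with vehicle (median 363) and from 367 to 577 CPM with borrelidin (median 468). In ATF4 KO the range was 384 to 546 CPM with vehicle (median 521) and 435 to 616 CPM with borrelidin (median 565). The medians increased from group to group in that order, and the ranges overlapped. Libraries of the set were low in each group that has them: 320 to 383 against 425 to 463 CPM in wild type with vehicle, 384 to 403 against 508 to 546 in ATF4 KO with vehicle, and 435 to 462 against 521 to 616 with borrelidin.

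Otulin, whose product removes linear ubiquitin chains from receptor complexes, ranged from 93.8 to 206 CPM in wild type with vehicle (median 136) and from 179 to 318 CPM with borrelidin (median 208). The range in ATF4 KO was 76.3 to 187 CPM with vehicle (median 143) and 85 to 206 CPM with borrelidin (median 176). Wild type with borrelidin was the high group, and 7 of 12 ATF4 KO libraries with borrelidin lay below its range. The set was low here too, without overlap in any group: 93.8 to 139 against 164 to 206 CPM in wild type with vehicle, 76.3 to 116 against 128 to 187 in ATF4 KO with vehicle, and 85 to 113 against 122 to 206 with borrelidin.

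Akirin2, the nuclear cofactor, ranged from 96.1 to 250 CPM in wild type with vehicle (median 138) and from 199 to 319 CPM with borrelidin (median 248). ATF4 KO cells ranged from 149 to 295 CPM with vehicle (median 206) and from 174 to 443 CPM with borrelidin (median 296). Borrelidin groups were high and vehicle groups low in both lines, with overlap in each. Means in the set were 124 ± 22.8 CPM (SD, n = 8) against 197 ± 46.4 CPM (SD, n = 3) in wild type with vehicle.

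Borrelidin in wild type cells went with more Otulin and Akirin2 transcript and less Birc2 and Birc3. Of the 6 genes 3 were called higher (Map3k7, Otulin and Akirin2) and 2 lower (Birc2 and Birc3) at an adjusted p under 0.05, where 57.5% of all 8986 tested rows were called (25.5% higher and 32% lower) and 57.1% of the 301 tested rows of the segments. Akirin2 was 1.72-fold higher (log2 change 0.78, SE 0.16, edgeR adjusted p = 9.6e-05) and Otulin 1.57-fold higher (0.65, SE 0.14, edgeR adjusted p = 0.00013). Map3k7 was 1.25-fold higher (log2 change 0.32, SE 0.08, edgeR adjusted p = 0.00057). Birc3 was at 0.603 of its vehicle level (log2 change -0.73, SE 0.11, edgeR adjusted p = 3.7e-07) and Birc2 at 0.773 (-0.37, SE 0.09, edgeR adjusted p = 9e-04). Ripk2 had a log2 change of -0.03 (SE 0.12, edgeR adjusted p = 0.82). In none of the 6 genes were the groups free of overlap, as they were in 6.25% of all rows. None was called at an adjusted p under 1e-10, in this or any other comparison; 1.31% of rows were called there in this one.

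These calls did not hold without the set of libraries. Without it, with 3 vehicle libraries left, 0 of the 6 genes were called, and the share of all rows called fell from 57.5% to 10.8%, so the count says little about these genes in particular. The log2 changes were 0.33 for Akirin2, 0.26 for Otulin, 0.10 for Map3k7, -0.14 for Birc2, -0.26 for Birc3 and -0.41 for Ripk2, with adjusted p from 0.096 to 0.57 from edgeR. With the set as a factor of the fit, Birc3 was called lower (-0.61, edgeR adjusted p = 0.00027) and Ripk2 was called lower (-0.33, edgeR adjusted p = 0.028), where 23.7% of all rows were called. Scaling on the rows of the segments shifted the median log2 change of all rows by -0.21, and the share of calls that were higher from 44.3% to 26.3%. Under it all 6 genes were called, 3 higher and 3 lower, with 61.7% of all rows called.

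Borrelidin in ATF4 KO cells went with more Akirin2 and Ripk2 transcript. These 2 of the 6 genes were called, both higher, against 30.3% of all tested rows (15% higher and 15.3% lower) and 39.9% of the rows of the segments. Akirin2 was 1.43-fold higher (log2 change 0.51, SE 0.14, edgeR adjusted p = 0.005) and Ripk2 1.27-fold higher (0.34, SE 0.11, edgeR adjusted p = 0.011). Birc3 had a log2 change of -0.24 (edgeR adjusted p = 0.069), Birc2 0.18 (adjusted p = 0.12), Map3k7 0.15 (adjusted p = 0.13) and Otulin 0.16 (SE 0.14, adjusted p = 0.42). The set was shared evenly here. Without it both calls held and Birc2 was called too, with 41.8% of all rows called: Akirin2 0.51 (adjusted p = 0.0011), Ripk2 0.42 (adjusted p = 0.00055) and Birc2 0.24 (adjusted p = 0.023, all from edgeR). Groups overlapped for all 6 genes, as they did for all but 2.5% of rows, and 0.49% of rows were called at 1e-10.

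Directions in ATF4 KO were also read within the 11 pairs of libraries with the same replicate number. That such libraries were cultured together was not shown. Akirin2 was higher with borrelidin in 11 of 11 pairs, Map3k7 and Birc2 in 10, Ripk2 in 9, Otulin in 6 and Birc3 in 2. The share of all rows with such agreement was not computed, so these counts are descriptions. The median log2 ratio within pairs was 0.42 for Akirin2, 0.26 for Ripk2, 0.25 for Birc2 and -0.25 for Birc3.

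The response to borrelidin differed between the lines for 4 of the 6 genes, by a test of the difference itself. Ripk2, Birc2 and Birc3 were called with a lower response in wild type and Otulin with a higher one, against 33.6% of all tested rows (16.5% higher and 17.1% lower) and 45.2% of the rows of the segments. The difference (wild type minus ATF4 KO, log2) was -0.55 for Birc2 (SE 0.13, edgeR adjusted p = 0.00087) and -0.49 for Birc3 (SE 0.14, edgeR adjusted p = 0.0078). It was -0.37 for Ripk2 (SE 0.15, edgeR adjusted p = 0.048) and 0.50 for Otulin (SE 0.19, edgeR adjusted p = 0.044). Map3k7 (0.17, adjusted p = 0.19) and Akirin2 (0.27, SE 0.20, edgeR adjusted p = 0.30) did not pass, and 0.501% of rows did at 1e-10. With a replicate block Ripk2 did not pass (-0.34, adjusted p = 0.061) and Akirin2 did (0.34, adjusted p = 0.043, both from edgeR). Ripk2 did not pass with limma voom either (-0.32, limma adjusted p = 0.086).

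Ripk2 alone of these was called without the set of libraries, with a larger difference: -0.83 (SE 0.16, edgeR adjusted p = 0.00036). The share of all rows called was then 9.9%. Birc2 then had -0.38 (adjusted p = 0.096), Birc3 -0.10 (adjusted p = 0.81) and Otulin 0.08 (adjusted p = 0.84, all from edgeR). With the set as a factor, Ripk2 (-0.63) and Birc2 (-0.36) were called, as were 20.4% of all rows. Scaling on the rows of the segments shifted the median of all rows by -0.15 and the share of calls that were higher from 49.2% to 33.8%, and Otulin was then not called (0.35, edgeR adjusted p = 0.059).

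**Figure D2:**
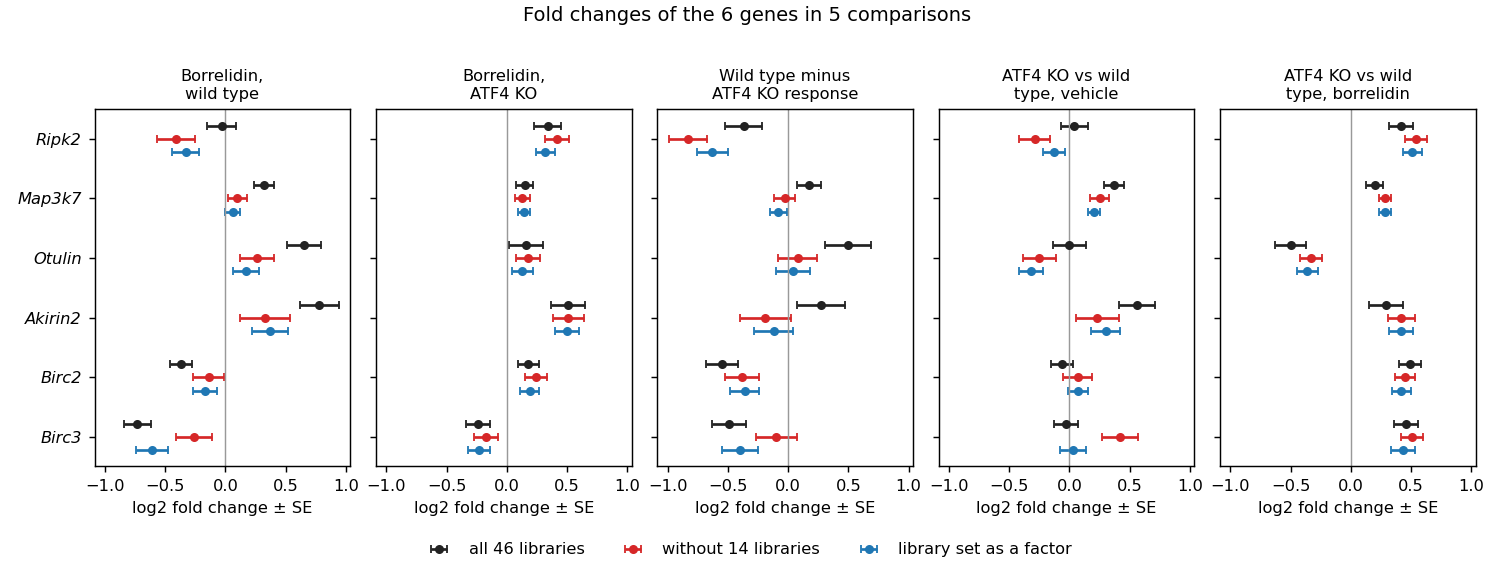
Log2 fold change ± SE (x axis) of the 6 genes (y axis) in 5 comparisons, with all 46 libraries (black), without the 14 libraries set apart (red) and with that set as a factor of the fit (blue). The 3 fits lie far apart for wild type with borrelidin and close together for ATF4 KO against wild type under borrelidin, where Otulin is at -0.50 and Birc2 at 0.49.

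Under vehicle, ATF4 KO cells held more Map3k7 and Akirin2 transcript than wild type. These 2 of the 6 genes were called, both higher, against 35.3% of all tested rows (18.1% higher and 17.2% lower) and 42.2% of the rows of the segments. Akirin2 was 1.47-fold higher (log2 change 0.56, SE 0.15, edgeR adjusted p = 0.0025) and Map3k7 1.29-fold higher (0.37, SE 0.08, edgeR adjusted p = 9.4e-05). Otulin (0.00), Ripk2 (0.04), Birc2 (-0.06) and Birc3 (-0.03) had adjusted p from 0.64 to 0.99 from edgeR. The groups overlapped for all 6 genes, where 5.38% of rows had no overlap and 2.63% passed 1e-10. Without the set of libraries Map3k7 kept its call (0.25, adjusted p = 0.02), Akirin2 did not pass (0.23, adjusted p = 0.41) and Birc3 did (0.42, adjusted p = 0.036, all from edgeR), with 21.2% of all rows called. The 8 ATF4 KO and 3 wild type libraries left did not overlap for Map3k7 (508 to 546 against 425 to 463 CPM) or for Ripk2 (79.7 to 97.8 against 103 to 117 CPM; log2 change -0.29, edgeR adjusted p = 0.12). Among these 8 and 3 libraries 22.5% of all rows had no overlap, so 2 of 6 is not far from that share. With the set as a factor Map3k7 (0.20, adjusted p = 0.00095) and Akirin2 (0.30, adjusted p = 0.044) were called higher and Otulin lower (-0.32, adjusted p = 0.0078). Birc3 was then not called (0.03, adjusted p = 0.85, all from edgeR), and 35.1% of all rows were. Scaling on the rows of the segments shifted the median of all rows by -0.11 and the share of calls that were higher from 51.2% to 35.8%.

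Under borrelidin, ATF4 KO cells held more transcript of both cIAP genes and of both kinases than wild type, and less Otulin. Of the 6 genes 4 were called higher and 1 lower, against 49.8% of all tested rows (25.7% higher and 24.1% lower) and 58.5% of the rows of the segments. Birc2 was 1.41-fold higher (log2 change 0.49, SE 0.09, edgeR adjusted p = 6.7e-06) and Birc3 1.38-fold higher (0.46, SE 0.10, edgeR adjusted p = 0.00016). Ripk2 was 1.34-fold higher (0.42, SE 0.10, edgeR adjusted p = 0.00076) and Map3k7 1.15-fold higher (0.20, SE 0.07, edgeR adjusted p = 0.02). Otulin was at 0.709 of its wild type level (log2 change -0.50, SE 0.13, edgeR adjusted p = 0.0018). Akirin2 had 0.29 (SE 0.14, edgeR adjusted p = 0.085, and 0.25 with adjusted p = 0.023 with a replicate block).

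The set holds 0 of 12 and 3 of 12 libraries of these groups, and without it the 5 calls held. All 6 genes were then called, against 54.3% of all rows: Ripk2 0.54 (adjusted p = 2.4e-06), Birc3 0.51 (adjusted p = 1.6e-05), Birc2 0.45 (adjusted p = 7.3e-06), Akirin2 0.42 (adjusted p = 0.0021), Map3k7 0.28 (adjusted p = 1.2e-05) and Otulin -0.33 (adjusted p = 0.0022, all from edgeR). With all libraries 10 of 12 ATF4 KO libraries lay above the wild type range for Birc2, 9 for Birc3, 7 for Ripk2 and 4 for Map3k7. No gene of the 6 was free of overlap, as 11.1% of rows were, and 5.49% of rows passed 1e-10. The 5 comparisons share groups and are not independent of each other.

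Of 146 genes listed for this pathway, 17 lie in the segments and 13 of these, the 6 described above included, were tested. None of 13 NF-κB subunits and IκB proteins is among them, and of 15 TAK1 and IKK kinases Map3k7 is the one that is. The chemokines Ccl19 and Ccl21a were listed at 0 CPM, Il7r had a mean of 0.0371 CPM and Otulinl, a relative of Otulin, 2.02 CPM, and these were not tested. The other 7 tested genes were the caspases Casp4 and Casp12, the matrix metalloproteinases Mmp3, Mmp10 and Mmp13, Casp8ap2 (a partner of caspase-8) and Nfx1. Of these 7, 3 were called higher (Nfx1, Mmp3 and Mmp13) and 1 lower (Casp12, log2 change -1.04, edgeR adjusted p = 0.0022) with borrelidin in wild type. In ATF4 KO 2 were called higher with borrelidin (Nfx1 and Casp4) and 1 lower (Mmp10), and the responses differed for 2 (Mmp13 and Mmp10, both higher in wild type). Against wild type, ATF4 KO had 2 higher (Casp4 and Casp12) and 1 lower (Mmp3) under vehicle, and 3 higher (Casp4, Casp12 and Nfx1) and 3 lower (Mmp3, Mmp10 and Mmp13) under borrelidin. Of all tested rows 57.5%, 30.3%, 33.6%, 35.3% and 49.8% were called in these 5 comparisons, in the order given. Counts among so few genes say little beside such shares. Median log2 changes of the 7 genes in the 5 comparisons were 0.31, -0.06, 0.15, 0.33 and -0.08, beside -0.06, -0.03, -0.05, 0.00 and 0.04 over all tested rows. Without the set of libraries these medians were 0.13, -0.32, 0.68, -0.05 and -0.08, beside 0.01, 0.01, 0.01, 0.00 and 0.01 over all rows, so that the one under vehicle turned sign. Calls in wild type and in the difference of the responses were then 0 and 0, where 10.8% and 9.9% of all rows were called. The counts of the other comparisons were 2 higher and 1 lower in ATF4 KO, 2 and 1 under vehicle, and 3 and 3 under borrelidin. In these, 41.8%, 21.2% and 54.3% of all rows were called. Some wild type changes that lost their call kept much of their size: Casp12 had -1.04 again (adjusted p = 0.15) and Mmp3 0.68 after 0.85 (adjusted p = 0.18 after 0.002, all from edgeR).

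Both caspases and Mmp3 differed between the lines under each treatment. Casp4 and Casp12 had means under 5 CPM in both wild type groups, and Mmp3 in both ATF4 KO groups. Each reached the 5 mean CPM for printed values through the other line, so these line differences are descriptions. Mmp10 and Mmp13 were called lower in ATF4 KO under borrelidin (log2 changes -1.13 and -1.43, adjusted p = 0.00068 and 5.2e-06), and under vehicle they had 0.33 and 0.37 (adjusted p = 0.36 and 0.29, all from edgeR). Casp4, the inflammatory caspase that senses bacterial lipopolysaccharide, had 0 to 1.99 CPM in wild type with vehicle, 0.523 to 2.6 with borrelidin, 5.82 to 13 in ATF4 KO with vehicle and 8.07 to 34.9 with borrelidin. The lines did not overlap under either treatment, as 5.38% of all rows did not under vehicle and 11.1% under borrelidin. In ATF4 KO against wild type the log2 change of Casp4 was 3.24 under vehicle (adjusted p = 4.1e-13) and 3.44 under borrelidin (adjusted p = 2.7e-16). It rose with borrelidin in ATF4 KO (1.01, adjusted p = 0.00021, all from edgeR). Casp12, a caspase linked to the endoplasmic reticulum, had 1.77 to 6.3 CPM in wild type with vehicle and 13.9 to 37.3 CPM in ATF4 KO with vehicle (2.14, edgeR adjusted p = 2.8e-10). With borrelidin it had 0 to 4.19 CPM in wild type and 11.6 to 31.3 CPM in ATF4 KO (3.00, edgeR adjusted p = 5.5e-14).

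Mmp3, the enzyme stromelysin that cuts matrix proteins, went the other way: 4.5 to 11.9 CPM in wild type with vehicle and 7.07 to 20.3 with borrelidin, against 0 to 1.37 and 0 to 1.32 CPM in ATF4 KO (log2 change -3.94, adjusted p = 1.4e-13, and -4.81, edgeR adjusted p = 3.8e-18). Mmp13, a collagenase, rose with borrelidin in wild type, where vehicle libraries had 4.44 ± 2.68 CPM (SD, n = 11) and treated ones 10.7 ± 3.41 CPM (SD, n = 12; log2 change 1.29, edgeR adjusted p = 7.7e-05). The ATF4 KO means were 5.66 ± 2.42 and 3.93 ± 1.80 CPM, and the responses differed by 1.80 (edgeR adjusted p = 0.00023). Without the set of libraries the wild type response of Mmp13 was 0.61 (adjusted p = 0.27) and the difference 1.19 (adjusted p = 0.065, both from edgeR). Mmp10 fell with borrelidin in ATF4 KO (-1.15, adjusted p = 0.0013, and -1.19 without the set). Nfx1 rose with borrelidin in both lines (0.25 and 0.27, adjusted p = 0.0012 and 5.6e-05 from edgeR), in wild type not without the set (0.13, adjusted p = 0.43). Casp8ap2 had log2 changes of -0.08 to 0.15 and passed in no comparison.

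**Figure D3:**
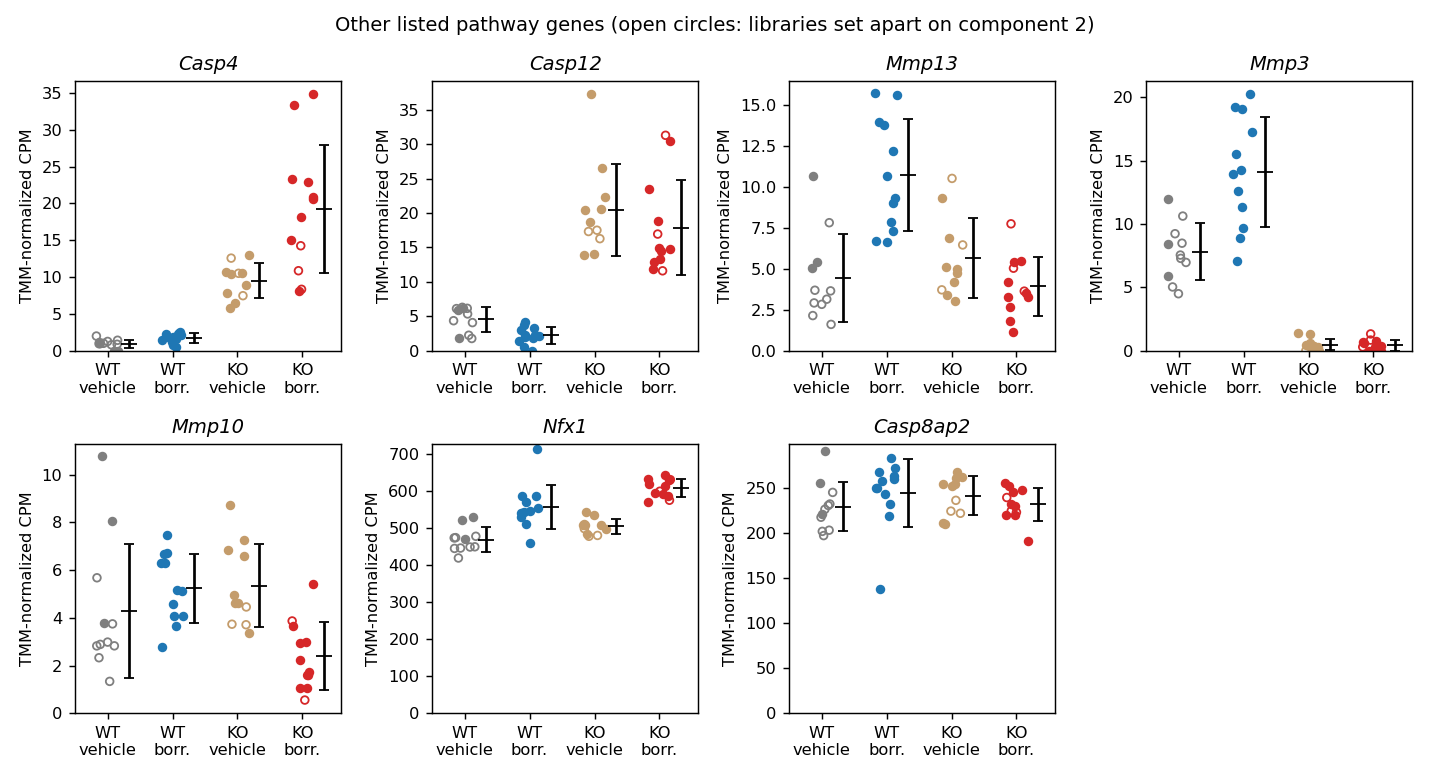
TMM-normalized CPM (y axis, from 0) of the 7 other tested pathway genes in each of the 46 libraries by group (x axis), with mean ± SD in black and the libraries set apart as open circles. Casp4 and Casp12 are high and Mmp3 is near 0 in all ATF4 KO libraries, where Mmp3 reaches at most 1.37 CPM.

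Birc2 and Birc3 lie to one side of these caspase and metalloproteinase genes on chromosome 9, and their neighbours are described for comparison. In order of position, Mmp10, the nearest of those genes, is followed by Tmem123, Birc2, Birc3, Yap1 and Cfap300. Tmem123, a membrane protein gene on the plus strand whose transcription start lies 73 kb from that of Birc2, rose with borrelidin in wild type (0.42, and 0.09 with adjusted p = 0.76 without the set) and fell in ATF4 KO (-0.51), and its responses differed by 0.92 (edgeR adjusted p = 2.2e-06, and 0.65 with adjusted p = 7.5e-08 without the set), with the opposite sign to Birc2 and Birc3. Under borrelidin ATF4 KO cells held less Tmem123 than wild type cells (-0.43, edgeR adjusted p = 0.00027). Yap1, the transcriptional coactivator of the Hippo pathway, was higher in ATF4 KO under vehicle (0.36, adjusted p = 1.2e-05) and under borrelidin (0.15, adjusted p = 0.047, both from edgeR). Cfap300, a cilia gene, had log2 differences between the lines of 0.24 under vehicle (adjusted p = 0.32) and -0.06 under borrelidin (adjusted p = 0.79, both from edgeR). Farther along this segment, the responses differed with the sign of Birc2 and Birc3 for Arhgap42 and Ccdc82. Their differences were -0.44 and -0.46 with all libraries (adjusted p = 6e-04 and 0.021, both from edgeR). Dcun1d5, Mmp10, Mmp13 and Tmem123 were called with the opposite sign.

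**Figure D4:**
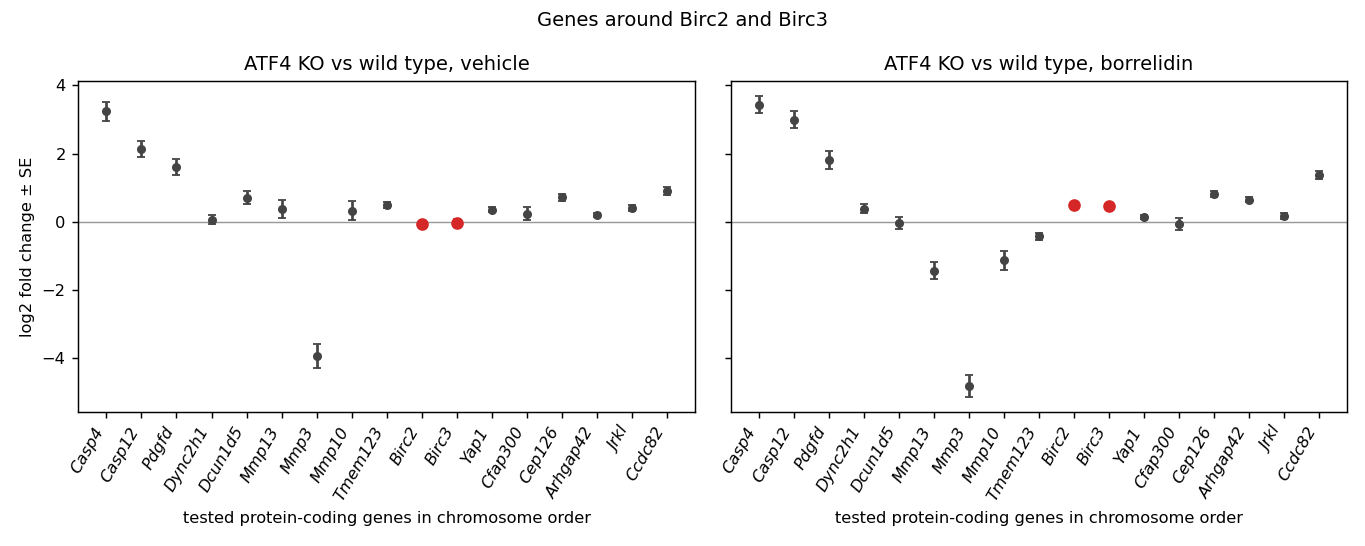
Log2 fold change ± SE (y axis) of ATF4 KO against wild type under vehicle (left) and under borrelidin (right) for the 17 tested protein-coding genes of the chromosome 9 segment in chromosome order (x axis), with Birc2 and Birc3 in red. Birc2 and Birc3 lie at -0.06 and -0.03 under vehicle and at 0.49 and 0.46 under borrelidin, between Mmp3 (-3.94 and -4.81) and Ccdc82.

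Genes around the other 4 were read in the same way. Next to Ripk2, Osgin2, an oxidative stress gene, rose with borrelidin in wild type (log2 change 1.43, adjusted p = 8.7e-11) and in ATF4 KO (0.81, adjusted p = 3.5e-09), and Nbn, a DNA repair gene, rose in both (0.36 and 0.44, adjusted p = 0.015 and 0.0019, all from edgeR). Ank, the pyrophosphate transporter gene that overlaps Otulin, was lower in ATF4 KO under vehicle (-1.50, adjusted p = 1.9e-19) and under borrelidin (-2.01, adjusted p = 1.9e-25, both from edgeR). Otulin itself had 0.00 and -0.50 in those comparisons. The responses of Ank to borrelidin differed by 0.52 (edgeR adjusted p = 0.0012), beside 0.50 for Otulin. With the set left out, the differences were 0.51 for Ank (edgeR adjusted p = 0.0078) and 0.08 for Otulin. Next to Akirin2, Orc3, a subunit of the origin recognition complex, and Rars2, the mitochondrial arginyl-tRNA synthetase, rose with borrelidin in wild type (0.39 and 1.04, adjusted p = 1.5e-06 and 6.5e-08) and in ATF4 KO (0.22 and 0.55, adjusted p = 0.001 and 0.00022, all from edgeR). Next to Map3k7, the repressor gene Bach2 fell with borrelidin in wild type (-1.21, adjusted p = 7.4e-06) and rose in ATF4 KO (0.55, adjusted p = 0.039, both from edgeR), while Casp8ap2 passed in neither. Without the set the wild type changes of Nbn (-0.03), Orc3 (0.18) and Bach2 (0.07) did not pass, and those named for ATF4 KO and for Osgin2 and Rars2 did. The remaining neighbours were Mmp16 and Cpne3 beside Ripk2, Manea and Epha7 beside Map3k7, Zfp622, Trio and Ctnnd2 beside Otulin, and Rngtt and Cnr1 beside Akirin2.

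Over the 46 libraries the 6 genes fell into patterns that the library set and the groups share, so correlations are given as descriptions. Of 251 other tested protein-coding genes of the segments, Ube2j1 (r = 0.92), Rngtt (0.90) and Ubap1 (0.90) were most like Map3k7, and Rab2a (0.91), Cct5 (0.90) and Anp32b (0.90) most like Otulin. For Akirin2 they were Basp1 (0.90), 2610301B20Rik (0.86) and Plekhf2 (0.84), and for Ripk2 Dcaf10 (0.77), Ccnc (0.67) and Ubap1 (0.67). Birc2 was closest to Rad54b (0.73), Msmp (0.72) and Pnisr (0.69), and Birc3 to Dnajb5 (0.80), Fam214b (0.67) and Msmp (0.67).

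Among the 6 genes themselves, log2 levels of Otulin and Akirin2 had r = 0.85 and those of Map3k7 and Otulin r = 0.73 over 46 libraries after the group means were removed. The lowest r was -0.45, for Otulin and Birc2. The set of libraries was not removed, so its low Otulin and Map3k7 levels are part of these values. Birc2 and Birc3 had r = 0.42 over all libraries and 0.04 within groups.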

How the data were processed

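Counts were analysed as the authors deposited them: raw read counts per mouse gene identifier for each library, with no normalization and no pooling. HISAT2, HTSeq and the build mm10 are named in the submitters' processing notes, with no strand setting or annotation release in those notes. The 5 closing rows that name no gene stayed out of all totals, and they held 69% of the reads of a library on average as overlapping no feature. Of 55416 row identifiers 52083 are in GENCODE M21, and genes are named only at chr15 from 9.07 to 37.01 Mb, chr4 from 5.64 to 55.53 Mb and chr9 from 5.31 to 13.29 Mb, where row identifiers matched their genes in an earlier analysis of these data. The members, segments and gene lists were chosen with earlier results of these data known.

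In R 4.3.3, counts were filtered (filterByExpr, 8986 rows kept), normalized (TMM) and tested with edgeR 4.0.16 by its quasi-likelihood test across all rows, with Benjamini-Hochberg adjustment and a threshold of 0.05 (1e-10 as the strict one). The wild type response used the model of the study, ATF4 activity plus genotype; the other comparisons used contrasts of 4 group means over all 46 libraries. Levels are TMM-normalized CPM (counts per 1e6). Marker sums, levels of genes not tested and the shares of rows over 5 CPM are on plain library totals instead. A library was set apart where the widest gap of component 2 scores in its group was over 50% of the group's range. Named genes were the 6 members, the listed pathway genes of the segments (with values from 5 mean CPM; Mmp10, at 4.3, is named as a neighbour of Birc2), the 2 nearest tested protein-coding genes on each side by lower coordinate and the 3 most correlated genes of each member. Genes of the chromosome 9 segment were also named beside Birc2 and Birc3. Alternatives were median ratio normalization, scaling on the segments' rows, no filter, DESeq2 1.42.0, limma 3.58.1 (voom), a replicate block, the compared groups alone, leaving out or modelling the set of libraries, and 4 group means. The tests were also run on simulated data. These data held no set of libraries apart, so the run cannot check the tests against the effect of that set.

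Deviations from the group means were compared for libraries with the same replicate number. In ATF4 KO all 11 pairs had r over 0.1 (0.16 to 0.77). Only 2 of 11 wild type pairs, 5 of 10 vehicle pairs and 2 of 12 borrelidin pairs did. The set of libraries holds replicates 1 to 3 of both ATF4 KO groups and was not removed from the deviations. Libraries with different numbers were not compared, so these r values cannot show that the numbers pair cultures. No 2 libraries of a group looked like repeats, with chi-square over degrees of freedom of at least 1.89. Members had 55 to 1795 counts per library, and counting error is part of the spread.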

Additional observations from a re-analysis of the deposited data

Results flagged for a closer look

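The response to borrelidin differed between wild type and ATF4 KO for 4 of the 6 genes by edgeR's test of the difference (wild type minus ATF4 KO, log2). That test called 33.6% of all tested rows and 45.2% of the rows of the segments. Levels are given as mean ± SD of 11 vehicle and 12 borrelidin libraries. Ripk2 differed by -0.37, with 85.6 ± 18 and 83.7 ± 12.2 CPM in wild type and 88.1 ± 7.21 and 112 ± 27.7 CPM in ATF4 KO. Otulin differed by 0.50, with 139 ± 32.7 and 219 ± 39.6 CPM in wild type and 139 ± 31.6 and 155 ± 41.6 CPM in ATF4 KO. Birc2 differed by -0.55, with 77.5 ± 13 and 59.9 ± 9.27 CPM in wild type and 74.3 ± 12.1 and 84.4 ± 9.34 CPM in ATF4 KO. Birc3 differed by -0.49, with 67.4 ± 14.7 and 40.7 ± 7.47 CPM in wild type and 66.2 ± 9.22 and 56.1 ± 5.62 CPM in ATF4 KO. Without the 14 libraries that stand apart Ripk2 is the one of these 4 that passed (-0.83), with 9.9% of all rows called. That fit holds 3 wild type libraries with vehicle.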

How the results depend on the processing

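Counts of the 6 genes called in the 5 comparisons (borrelidin in wild type, borrelidin in ATF4 KO, difference of the responses, lines under vehicle, lines under borrelidin) were 5, 2, 4, 2 and 5, and stayed within 1.5 times of these under median ratio normalization, scaling on the segments, DESeq2, limma voom, the replicate block, the compared groups alone (fitted for 4 of them) and 4 group means (fitted for wild type). Without the filter on low counts 1 gene (Birc2) was called for the difference, with 7.4% of all rows; Ripk2 (-0.34, adjusted p = 0.2), Otulin (0.53, adjusted p = 0.063) and Birc3 (-0.45, adjusted p = 0.051) lost their calls there, and Map3k7 lost its call between the lines under borrelidin (0.21, adjusted p = 0.14, all from edgeR). Ripk2 also lost its call for the difference with limma voom (-0.32, limma adjusted p = 0.086). Without the 14 libraries 0 were called for wild type and 1 for the difference, beside 10.8% and 9.9% of all rows. With their set as a factor 2 were called for wild type, 5 for borrelidin in ATF4 KO and 2 for the difference. The shares of all rows were then 23.7%, 43.1% and 20.4%. At 1e-10 the count was 0 in each. The cause was not tested.

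Some signs turned. Without the filter Ripk2 in wild type was 0.02, and under vehicle Otulin was 0.04 and Birc3 0.02. Scaling on the segments gave Ripk2 -0.06 under vehicle. Without the 14 libraries the difference was -0.03 for Map3k7 (from 0.17) and -0.19 for Akirin2 (from 0.27), and under vehicle Ripk2 was -0.29, Birc2 0.07 and Birc3 0.42 (edgeR adjusted p = 0.036, from -0.03). With the set as a factor these 5 values were -0.08, -0.12, -0.13, 0.07 and 0.03. The replicate block gave Otulin 0.02 under vehicle, and beside the 3 calls given with the results (Ripk2 and Akirin2 for the difference, Akirin2 under borrelidin) it changed no call.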
